A study of Homo sapiens with 6 samples.

Results

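The genes described here encode core proteins of cell-surface and basement membrane heparan sulfate proteoglycans: the syndecans SDC1, SDC2, SDC3 and SDC4, the glypicans GPC1, GPC3, GPC4 and GPC6, perlecan (HSPG2) and agrin (AGRN). They were chosen by gene symbol from a table of 27830 genes, 10 symbols in all, of which 8 had values. GPC3 and GPC4 were not analysed here. All 8 passed the filter on low counts and were among the 14463 genes tested.

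The values come from RNA sequencing of the established human cell line LX-2, a culture model of the hepatic stellate cell, which makes most of the scar matrix of the liver. The 3 control samples were untreated. The 3 TGF-β1 samples received transforming growth factor beta 1, the main profibrotic cytokine of the liver, at 10 ng/ml for 24 h in medium without serum. The labels do not give the serum state of the controls, so serum and TGF-β1 cannot be told apart in any difference below. Whether replicates came from separate cultures is not stated either, and p-values therefore cover only a spread between samples that may be technical. All samples are of 1 cell line, and the labels name no genotype or other agent that differs between the groups.

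Heparan sulfate proteoglycans are proteins that carry long, sulfated sugar chains, and these chains hold growth factors, chemokines and matrix proteins at the cell surface and in basement membranes. Syndecans span the membrane and link the matrix to the actin cytoskeleton, glypicans are held by a lipid anchor and shape the reach of secreted signals such as Wnt, Hedgehog, BMP and FGF proteins, and perlecan and agrin are large secreted proteins of basement membranes. Fewer cells with a transcript and less of it per cell cannot be told apart in these bulk samples.

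Library totals ran from 13866957 to 17694675 counts. Stellate markers were present in part: COL1A1 had 18192 to 32395 counts per library, PDGFRB 660 to 898 and HAND2 187 to 283, while ACTA2 had 65 to 92, COL1A2 29 to 48, PDGFRA 6 to 12, LRAT 0 to 2, DES 1 to 5 and CYGB 1 to 8. The summed level of 16 stellate and fibroblast markers was 2867 to 2941 CPM (read counts scaled to library size) in controls and 3009 to 3454 CPM with TGF-β1, without overlap, and 1 of them, COL3A1, was called by edgeR. Its part in the differences below was not tested. Among markers of other liver cells, the summed level of 5 hepatocyte markers was 50.3 to 54.1 CPM in controls and 57.3 to 72.5 CPM with TGF-β1, with APOA1, APOB and CYP3A4 under 10 counts in every library, and the part of such signal in the differences below was not tested. The sums were 443 to 454 and 435 to 453 CPM for 8 endothelial markers, 29.6 to 37.5 and 26.4 to 29.6 CPM for 7 leukocyte markers, and 636 to 746 and 504 to 677 CPM for 7 epithelial markers, and no marker of these 4 lists was called.

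The promoters of 4 members are shown first because 3 of them, GPC1, HSPG2 and SDC4, belong to genes whose levels did not overlap between the groups, and the other, GPC6, is the member with the highest positive difference. Each line holds the 250 bases before the RefSeq start (GRCh38.p14), with capitals on GC boxes, the GGGCGG motif bound by Sp1-family factors, found on either strand and allowed to overlap one another.
GPC1 promoter, chr2:240435413-240435662, plus strand: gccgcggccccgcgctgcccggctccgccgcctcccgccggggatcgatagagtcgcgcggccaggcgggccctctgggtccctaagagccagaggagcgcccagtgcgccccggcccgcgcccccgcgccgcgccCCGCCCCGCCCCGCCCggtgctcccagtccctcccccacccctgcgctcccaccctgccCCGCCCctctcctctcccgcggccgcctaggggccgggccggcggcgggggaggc
HSPG2 promoter, chr1:21937311-21937560, minus strand: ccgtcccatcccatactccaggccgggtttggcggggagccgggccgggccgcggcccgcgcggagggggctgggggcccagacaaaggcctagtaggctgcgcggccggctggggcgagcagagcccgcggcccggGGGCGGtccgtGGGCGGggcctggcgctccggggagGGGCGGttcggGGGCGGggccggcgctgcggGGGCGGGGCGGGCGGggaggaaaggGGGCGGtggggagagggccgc
SDC4 promoter, chr20:45348425-45348674, minus strand: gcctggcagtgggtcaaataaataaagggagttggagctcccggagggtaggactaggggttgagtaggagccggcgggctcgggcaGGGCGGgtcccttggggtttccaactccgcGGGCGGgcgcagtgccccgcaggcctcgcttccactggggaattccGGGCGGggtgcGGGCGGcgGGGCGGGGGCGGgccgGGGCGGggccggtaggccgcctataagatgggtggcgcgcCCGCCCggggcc
GPC6 promoter, chr13:93226557-93226806, plus strand: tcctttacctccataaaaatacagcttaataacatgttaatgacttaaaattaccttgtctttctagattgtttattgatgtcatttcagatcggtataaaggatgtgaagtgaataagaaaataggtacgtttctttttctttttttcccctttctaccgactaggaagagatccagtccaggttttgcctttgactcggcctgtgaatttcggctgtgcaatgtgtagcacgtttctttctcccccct
The GPC1, HSPG2 and SDC4 windows held 4, 8 and 8 GC boxes and had a GC content of 84%, 82.8% and 73.6%, against a median of 58% over all 35116 RefSeq windows of this length. The GPC6 window held no GC box and had a GC content of 37.6%. Members whose groups overlapped had GC boxes too: the SDC3 window held 5 at a GC content of 83.6%, and the 2 SDC1 windows held 1 each at 75.2% and 66.4%. Windows of AGRN and SDC2 were not used here. At least 1 GC box stood in 42.6% of all windows, a share that does not give how many boxes windows of such high GC content hold. Of 2 other motifs searched on both strands, CAGAC, which SMAD proteins bind, matched once in the HSPG2 window and not in the other 3 shown (38% of all windows), and TGANTCA, the AP-1 site, matched in none of the 4 (6.57% of all windows). These matches describe the letters only.

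In per-length levels (FPKM, as deposited, which scales counts by gene length and library total), SDC4 was the most abundant of these core proteins in both groups and GPC6 the least. SDC4 stood at 232 ± 10.9 FPKM in controls (SD, n = 3) and 195 ± 12.6 FPKM with TGF-β1. SDC1 followed with 113 ± 12.8 and 114 ± 12.1 FPKM. AGRN came next at 112 ± 9.21 and 87.3 ± 4.10 FPKM, and its range overlapped that of SDC1 in controls but not with TGF-β1. GPC1 had 61.1 ± 6.35 and 45.6 ± 6.32 FPKM, and SDC3 17.2 ± 1.02 and 15.1 ± 0.754 FPKM. HSPG2 was far below its basement membrane partner AGRN, with 6.26 ± 0.501 and 4.25 ± 0.862 FPKM. SDC2 had 3.48 ± 0.417 and 3.55 ± 0.235 FPKM, a range that HSPG2 overlapped with TGF-β1 but not in controls. GPC6 had 0.201 ± 0.0436 and 0.383 ± 0.215 FPKM. The order was the same in both groups, and neighbours other than SDC1 with AGRN in controls and HSPG2 with SDC2 after TGF-β1 had ranges that did not overlap.

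**Figure D1:**
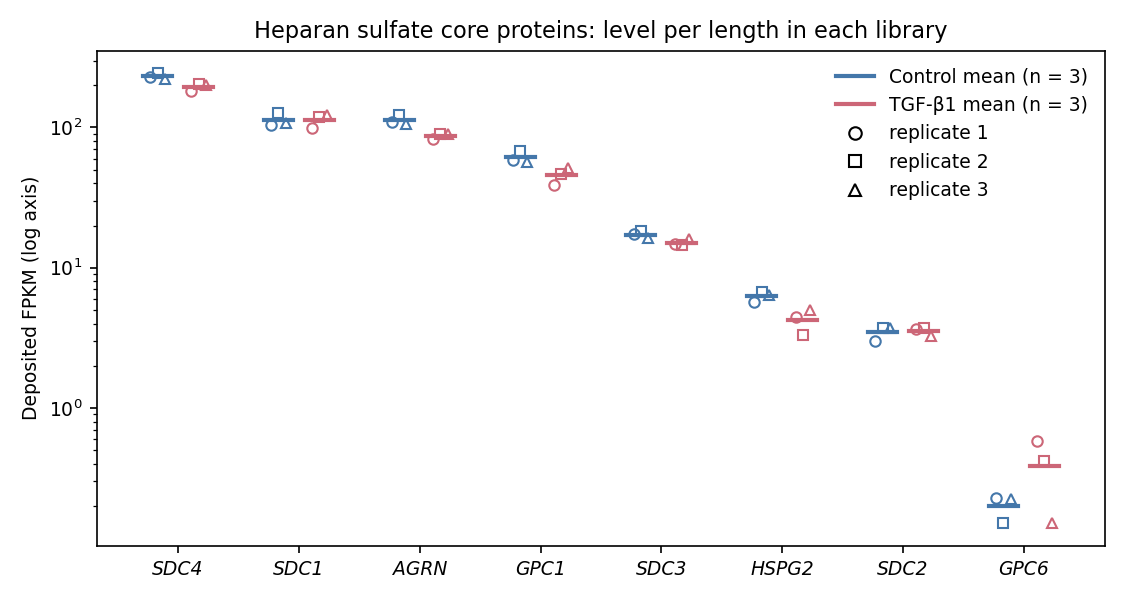
Deposited FPKM (log axis) of the 8 core protein genes in each of 6 libraries, with markers for replicate numbers and horizontal lines for group means (n = 3). SDC4 lies at the top, near 232 and 195 FPKM, and GPC6 at the bottom, with its TGF-β1 replicates spread widely.

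The comparison of TGF-β1 with control cells asked which of these genes differed between the groups. None of the 8 passed edgeR's quasi-likelihood test at an adjusted p under 0.05, where 0.366% of all tested genes did (53 of 14463). At an unadjusted p under 0.05, 4 members were lower and 1 was higher with TGF-β1, against 4.49% of all tested genes lower and 11.1% higher. DESeq2 called 1 member, HSPG2, and 4.45% of all genes to which it gave an adjusted p (590 of 13262). The limma voom fit called 0 members and 0.38% of all tested genes (55 of 14463). HSPG2, GPC1, AGRN and SDC4 were lower in every TGF-β1 library than in any control library, 4 of 8 members, where 9.12% of tested genes showed that separation. The median log2 difference was -0.24 over the 8 members and 0.0070 over all tested genes.

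**Figure D2:**
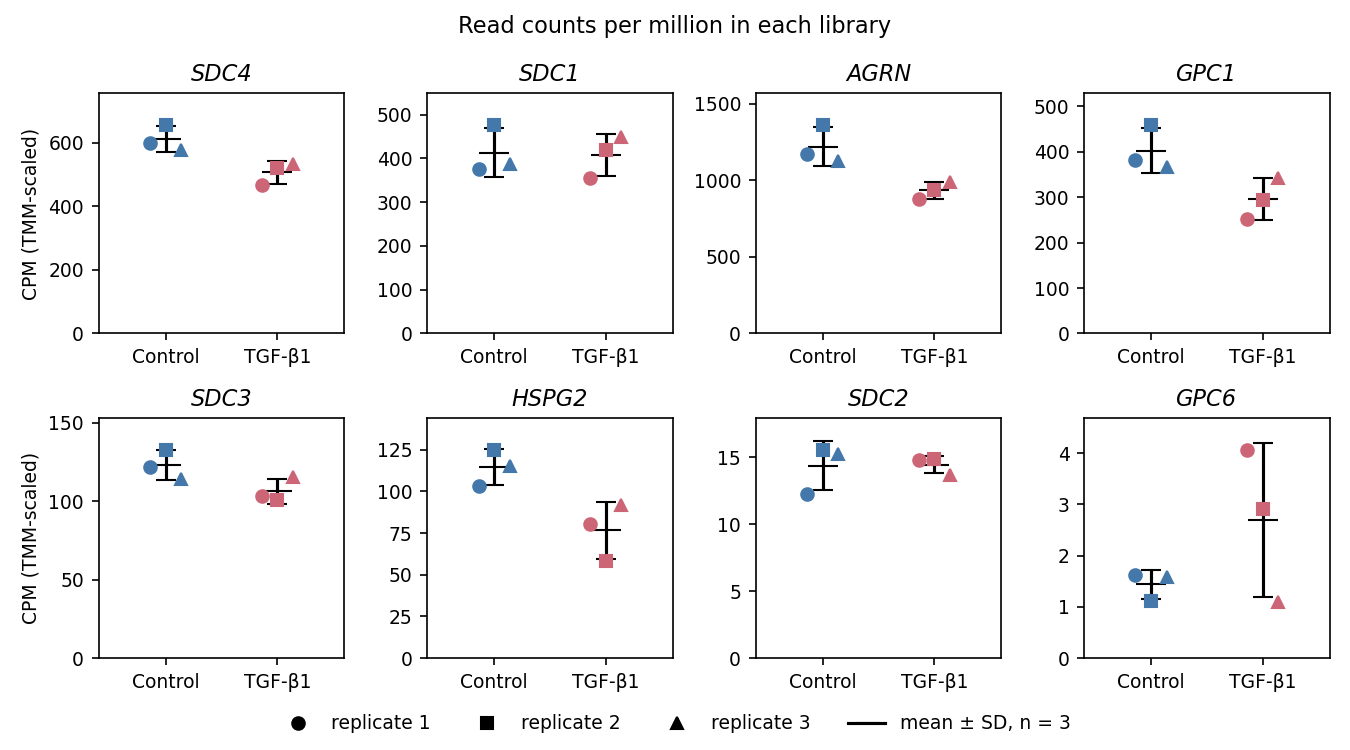
CPM on TMM-scaled library sizes for each gene, with 1 point per library, marker shape for replicate number, and mean ± SD (n = 3) in black; each axis starts at 0. TGF-β1 points lie below all control points for SDC4, AGRN, GPC1 and HSPG2, and the groups overlap for SDC1, SDC3, SDC2 and GPC6.

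Among the syndecans, SDC4 had the lowest unadjusted p. SDC4 is the broadly expressed syndecan of focal adhesions, where it acts with integrins in binding fibronectin. In order of replicate number, here and below, the controls had 599.7, 657 and 578.5 CPM and the TGF-β1 libraries 467, 519.9 and 535 CPM. All TGF-β1 libraries lay below all controls, by 17.1% in the fitted mean. On the log2 scale it differed by -0.27 ± 0.12 (SE; 95% interval -0.53 to -0.01), which did not pass (edgeR adjusted p = 0.300).

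SDC1, the syndecan typical of epithelia and plasma cells, also had a high level in this line. It had 376, 477 and 387 CPM in controls and 356, 419 and 449.7 CPM with TGF-β1. The groups overlapped throughout, and control replicate 2 was the highest library. Its log2 difference was -0.02 ± 0.14 (SE, 95% interval -0.32 to 0.29, edgeR adjusted p = 0.964), a sign kept in only 11 of 24 alternatives.

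SDC3, a syndecan best known from neurons and muscle, had 122, 133 and 114 CPM in controls and 103, 100.5 and 115 CPM with TGF-β1. TGF-β1 replicate 3 lay just inside the control range. With libraries scaled to total counts only, SDC3 too had groups that did not overlap, which made 5 of 8 members, and 8.99% of tested genes were lower in that way. It differed by -0.21 ± 0.12 on the log2 scale (SE; 95% interval -0.48 to 0.06; edgeR adjusted p = 0.450).

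SDC2, a syndecan of mesenchymal cells known as fibroglycan, was the least abundant of the family. It lies on chromosome 8 from 96493351 to 96611780 of GRCh38. Its counts were 173, 267 and 250 in controls and 243, 250 and 186 with TGF-β1. These correspond to 12.2, 15.6 and 15.2 CPM and to 14.8, 14.8 and 13.7 CPM. The TGF-β1 libraries lay within the control range. The log2 difference was 0.0070 ± 0.17 (SE, 95% interval -0.37 to 0.38, edgeR adjusted p = 0.989), a sign kept in only 11 of 24 alternatives.

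The make-up of the syndecan family was compared within each library. SDC4 took 64.9%, 61.9% and 63.5% of the summed syndecan FPKM in controls and 60.5%, 59.8% and 58.7% with TGF-β1. SDC1 took 29.4%, 32.5% and 30.8% in controls and 33.4%, 34.8% and 35.7% with TGF-β1. The groups did not overlap for either share, lower for SDC4 and higher for SDC1, while SDC3 at 4.28% to 4.94% and SDC2 at 0.846% to 1.22% overlapped. SDC4 and SDC1 hold most of the sum, so a lower share of one largely fixes a higher share of the other. The 2 separations are therefore not separate results, and SDC1 itself had 113.3 and 113.5 FPKM in controls and with TGF-β1. These shares are a description without a test or a background over all genes, and they do not depend on library scaling.

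Of GPC1 and GPC6, GPC1 was by far the more abundant. GPC1 is the glypican most often found in mesenchymal and tumour cells, where it binds FGF and other heparin-binding growth factors. It had 383, 459.6 and 366 CPM in controls and 251, 294 and 343 CPM with TGF-β1. All TGF-β1 values were below all control values, with TGF-β1 replicate 3 closest to them. The fitted level was 26.4% lower, a log2 difference of -0.44 ± 0.15 (SE; 95% interval -0.76 to -0.12; edgeR adjusted p = 0.192). Without TGF-β1 replicate 3 it was -0.56 and passed (edgeR adjusted p = 0.024). That fit called 1671 of 14874 tested genes, against 53 of 14463 in the main fit.

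GPC6, a glypican of growth plate and mesenchyme that takes part in Hedgehog signalling, had few reads. Its counts were 23, 19 and 26 in controls and 67, 49 and 15 with TGF-β1. TGF-β1 replicates 1 and 2 were above all controls and TGF-β1 replicate 3 was at the level of the lowest control (1.10 and 1.11 CPM). The log2 difference was 0.93 ± 0.42 (SE; 95% interval 0.01 to 1.84; edgeR adjusted p = 0.313). It was 1.28 without TGF-β1 replicate 3 (edgeR adjusted p = 0.0208), where 1671 of 14874 tested genes passed. It was 0.51 without TGF-β1 replicate 1 (edgeR adjusted p = 0.752), so single libraries set its size. Of its exon bases, 7.36% overlap a gene on the opposite strand, and the counts carry no strand.

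The secreted members HSPG2 and AGRN did not pass the test, and the TGF-β1 values of each lay below all its control values. HSPG2 encodes perlecan, which joins laminin and collagen IV networks and stores growth factors on its heparan sulfate chains. It had 103, 125 and 115 CPM in controls and 80.4, 58.1 and 91.7 CPM with TGF-β1. The groups did not overlap, and TGF-β1 replicate 2 was the lowest library. The fitted level was 33.0% lower, a log2 difference of -0.58 ± 0.17 (SE; 95% interval -0.94 to -0.21; edgeR adjusted p = 0.152). The call was made without TGF-β1 replicate 1 (log2 -0.62, edgeR adjusted p = 0.00756), where 324 of 14718 tested genes were called. It was also made without TGF-β1 replicate 3 (log2 -0.73, edgeR adjusted p = 0.0154), where 1671 of 14874 were. With the replicate number as a block HSPG2 passed too (log2 -0.60, edgeR adjusted p = 0.0476), with 527 of 14463 genes called. HSPG2 did not pass without any 1 control replicate or without TGF-β1 replicate 2 (edgeR adjusted p = 0.228 to 0.415). Of its exon bases, 11.7% overlap LDLRAD2 on the opposite strand, so a part of its counts is uncertain.

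AGRN encodes agrin, known as the organizer of the neuromuscular junction and also found in the basement membranes of liver vessels and bile ducts. It had 1169, 1362 and 1128 CPM in controls and 879, 939.5 and 986 CPM with TGF-β1. Every TGF-β1 library was below every control. The fitted level was 23.4% lower, a log2 difference of -0.38 ± 0.12 (SE, 95% interval -0.65 to -0.12, edgeR adjusted p = 0.182). Of the 24 alternatives it passed only without TGF-β1 replicate 3 (log2 -0.43, edgeR adjusted p = 0.0471), where 1671 of 14874 tested genes passed. AGRN lies on chromosome 1 from 1020123 to 1056118, HSPG2 on chromosome 1 from 21822245 to 21937297, GPC1 on chromosome 2 from 240435671 to 240468078 and SDC4 on chromosome 20 from 45325288 to 45348424 of GRCh38.

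**Figure D3:**
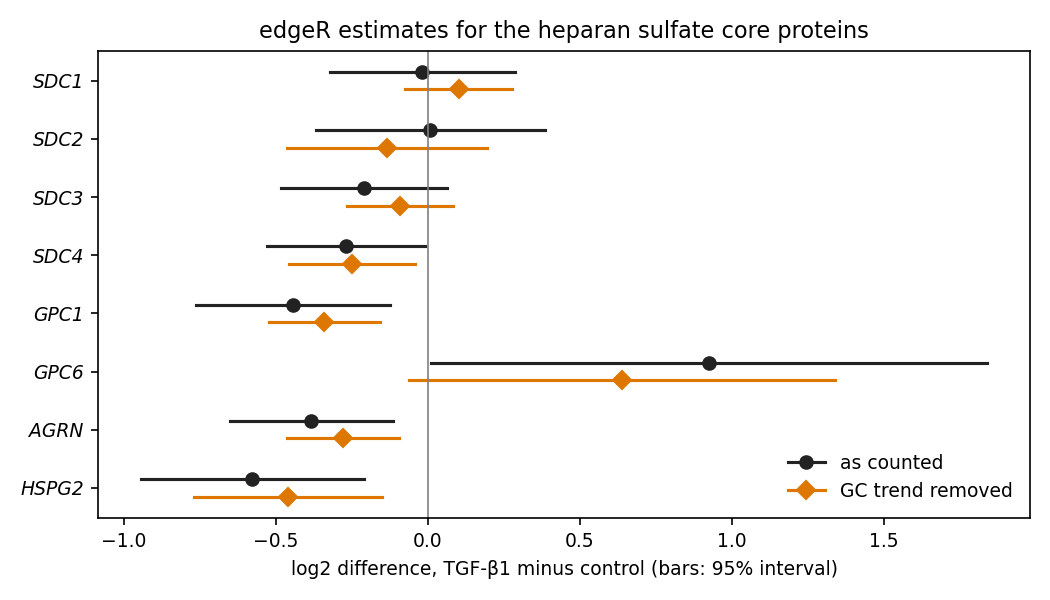
edgeR log2 differences (TGF-β1 minus control) for the 8 genes with 95% intervals, as counted (black circles) and with the GC trend of each library removed (orange diamonds). Intervals for SDC4, GPC1, AGRN and HSPG2 lie below 0 in both, and those for SDC1, SDC2 and SDC3 span 0 in both.

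Levels relative to SDC1 in the same library, a comparison chosen after the values were seen and free of library scaling, separated the groups for SDC4, GPC1, HSPG2 and AGRN, the same 4 members as in CPM, where 10.4% of all tested genes were lower in that way. SDC1 was chosen for its similar level in both groups, so these ratios largely repeat the CPM. The FPKM of GPC1 over that of SDC1 was, in order of replicate number, 0.564, 0.534 and 0.523 in controls and 0.391, 0.389 and 0.423 with TGF-β1. For AGRN over SDC1 the values were 1.04, 0.959 and 0.978 in controls and 0.829, 0.753 and 0.736 with TGF-β1. SDC4 over SDC1 was 2.21, 1.91 and 2.07 in controls and 1.81, 1.72 and 1.64 with TGF-β1. HSPG2 over SDC1 was 0.0548, 0.0523 and 0.0592 in controls and 0.0451, 0.0277 and 0.0406 with TGF-β1, with TGF-β1 replicate 2 far below the others. SDC3 over SDC1 overlapped between the groups, at 0.142 to 0.166 and 0.123 to 0.148. No test was made of these ratios, which show unequal levels within libraries and not which of the 2 genes differs.

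The members differ widely in base composition, and the libraries differed in how levels followed it. Transcript GC content was 67.5% for AGRN, 66.7% for GPC1, 64.5% for HSPG2, 60.1% for SDC1, 58.7% for SDC3, 48.8% for SDC4, 43.9% for SDC2 and 41.6% for GPC6. Over 2078 tested genes of at least 60% GC, the median log2 deviation from the gene mean was highest in control replicate 2 (0.23) and lowest in TGF-β1 replicate 1 (-0.24), with the other 4 libraries from -0.05 to 0.09. Control replicate 2 was also the highest library, and TGF-β1 replicate 1 the lowest, for SDC1, SDC4, GPC1 and AGRN. SDC4 is not GC-rich, and both libraries kept these places with the GC trend removed (664 and 461 CPM). For the GC-rich SDC3 and HSPG2, control replicate 2 was the highest but TGF-β1 replicate 2 the lowest (100.5 and 58.1 CPM). Of 2951 tested genes with at least 58% GC, a bound set after the members' values were seen, 74.5% had a log2 difference below 0 and 11.4% were lower in every TGF-β1 library.

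**Figure D4:**
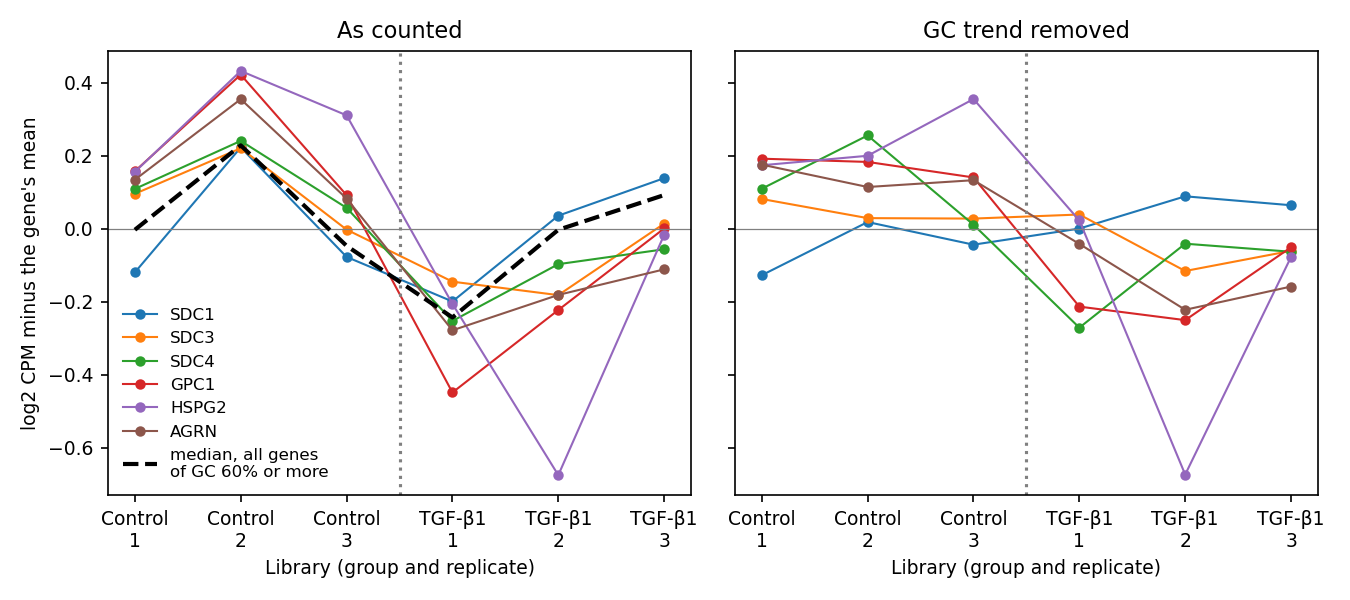
log2 CPM minus the gene's mean over 6 libraries for 6 core protein genes, as counted (left, with the median of all genes of at least 60% GC dashed) and with each library's GC trend removed (right); lines join the values of 1 gene and carry no order. After removal the control values of GPC1 and AGRN lie close together, and HSPG2 in TGF-β1 replicate 2 stays low.

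With a smooth trend on GC content removed from each library, the spread among controls narrowed for the 5 GC-rich members. The coefficient of variation of the controls went from 12.4% to 1.89% for GPC1, 10.2% to 2.17% for AGRN, 9.52% to 6.90% for HSPG2, 13.3% to 5.05% for SDC1 and 7.76% to 2.14% for SDC3. Among TGF-β1 libraries it narrowed for GPC1 (15.5% to 7.49%), SDC1 (11.7% to 3.15%) and SDC3 (7.32% to 5.44%) but not for AGRN (5.78% to 6.41%) or HSPG2 (22.3% to 24.0%). Of the members with less GC, the control spread widened for SDC4 (6.63% to 8.58%) and SDC2 (12.8% to 18.9%) and narrowed for GPC6 (20.03% to 9.90%). Among TGF-β1 libraries it likewise widened for SDC4 (7.04% to 8.56%) and SDC2 (4.44% to 9.24%) and narrowed for GPC6 (55.5% to 42.05%).

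GPC1 then had 392, 389.5 and 378 CPM in controls and 296, 288.5 and 331 CPM with TGF-β1. It differed by -0.34 ± 0.08 (SE) on the log2 scale and passed (edgeR adjusted p = 0.0438), the only member to do so, where 3.49% of all tested genes passed. With 1 library left out as well, GPC1 passed only without TGF-β1 replicate 3 (edgeR adjusted p = 0.0124), where 1480 of 14779 genes passed. Without another library it had edgeR adjusted p = 0.0778 to 0.216, and with the replicate block 0.0772.

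AGRN had 1203, 1153 and 1168 CPM in controls and 1035, 913 and 955 CPM with TGF-β1 after the removal, a log2 difference of -0.28 ± 0.09 (SE; edgeR adjusted p = 0.0893). HSPG2 had 105, 106.5 and 119 CPM and 94.2, 58.2 and 87.9 CPM, a log2 difference of -0.46 ± 0.14 (SE; edgeR adjusted p = 0.0925). The HSPG2 difference was -0.27 without TGF-β1 replicate 2, so that library set much of its size. It passed without TGF-β1 replicate 1 (log2 -0.59, edgeR adjusted p = 0.0234), where 357 of 14625 tested genes passed. Without any other library it did not pass (edgeR adjusted p = 0.0574 to 0.252). SDC4, whose GC content is near the middle, kept a similar log2 difference of -0.25 ± 0.10 (SE; edgeR adjusted p = 0.161).

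SDC1 moved to 0.10 ± 0.08 (SE; 95% interval -0.08 to 0.28; edgeR adjusted p = 0.533) and SDC3 to -0.09 ± 0.08 (SE; edgeR adjusted p = 0.579). SDC2 moved to -0.14 ± 0.15 (SE; edgeR adjusted p = 0.671) and GPC6 to 0.64 ± 0.32 (SE; edgeR adjusted p = 0.289). The same 4 members as before, SDC4, GPC1, HSPG2 and AGRN, had TGF-β1 values below all controls, against 12.8% of all tested genes and 11.9% of those with at least 58% GC.

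The genes that build, edit, break down and bind heparan sulfate proteoglycans were described in 8 lists of 85 genes, of which 68 were tested. In all, 3 rose and 1 fell by edgeR, against 0.187% and 0.18% of all tested genes. With the GC trend removed, 6 rose and 3 fell, against 1.8% and 1.68% of all tested genes. The lists were chosen with earlier results of these data known, so these counts are a description and not a test of the lists. Levels below are FPKM and differences are edgeR's fold changes.

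Chain synthesis held no called gene. None of 6 tested linkage region enzymes passed (median log2 difference 0.0024), among them B3GAT3, which adds the glucuronic acid of the linker (30.6 ± 3.06 and 30.5 ± 4.41 FPKM, edgeR adjusted p = 0.952), and XYLT2, a xylosyltransferase that starts the chain (22.9 ± 2.85 and 23.7 ± 1.34 FPKM, edgeR adjusted p = 0.935). XYLT1, the other xylosyltransferase, stood at 1.10 ± 0.169 and 1.96 ± 0.1001 FPKM (log2 difference 0.81 ± 0.17 SE, edgeR adjusted p = 0.0778). It rose with the GC trend removed (log2 0.87, edgeR adjusted p = 0.00371).

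None of 4 tested chain polymerases passed (median -0.06). EXT1, a subunit of the polymerase, had 19.7 ± 0.260 and 17.6 ± 0.764 FPKM (edgeR adjusted p = 0.489), and EXTL3, which adds the first N-acetylglucosamine, 15.2 ± 0.488 and 14.2 ± 1.90 FPKM (edgeR adjusted p = 0.717). None of 13 sulfation and epimerization genes passed (median 0.09). NDST1, the N-deacetylase and N-sulfotransferase, had 28.5 ± 1.23 and 27.4 ± 2.09 FPKM (edgeR adjusted p = 0.807), and SLC35B2, the Golgi carrier of the sulfate donor, 54.5 ± 6.13 and 50.04 ± 6.81 FPKM (edgeR adjusted p = 0.679). HS3ST3A1, a 3-O-sulfotransferase, had 2.81 ± 0.358 and 4.13 ± 0.386 FPKM (edgeR adjusted p = 0.191), and rose with the GC trend removed (log2 0.66, edgeR adjusted p = 0.0273), a call lost without control replicate 1 or 2 or TGF-β1 replicate 2 (edgeR adjusted p = 0.0972 to 0.162).

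Of 7 tested genes that edit or shed the proteoglycans outside the cell, 1 rose (median 0.17): MMP2, a gelatinase able to cleave syndecan ectodomains, 2.47-fold from 12.5 ± 1.76 to 31.3 ± 3.00 FPKM (edgeR adjusted p = 0.00309, and 0.0609 without TGF-β1 replicate 2). MMP14, the membrane-bound sheddase of the same family, was the most abundant of the list at 177 ± 22.0 and 202 ± 15.5 FPKM (edgeR adjusted p = 0.577). ADAM17, another sheddase, fell with the GC trend removed (log2 -0.47, edgeR adjusted p = 0.0379), against a log2 difference of -0.07 as counted (edgeR adjusted p = 0.891). That ADAM17 call was lost with any 1 library left out except TGF-β1 replicate 3 (edgeR adjusted p = 0.066 to 0.188) and with the replicate block (0.0602).

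All 8 genes of lysosomal heparan sulfate breakdown had a log2 difference below 0 (median -0.28, and 49% of all tested genes were below 0), and none passed. NAGLU, an N-acetylglucosaminidase, had 27.4 ± 2.83 FPKM in controls and 22.9 ± 2.83 FPKM with TGF-β1 (edgeR adjusted p = 0.396). With the GC trend removed the median was -0.22 and again none passed.

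Among 8 other tested core proteins, 1 rose (median 0.09). SPOCK1, testican-1, rose 3.09-fold from 8.28 ± 1.602 to 26.0 ± 6.52 FPKM (edgeR adjusted p = 0.00477, and 0.0614 without TGF-β1 replicate 2). SRGN, serglycin, the core protein of secretory granules, was the most abundant of that list at 247 ± 15.2 and 169 ± 12.1 FPKM, in the range of SDC4. Its log2 difference was -0.57 ± 0.12 (SE; edgeR adjusted p = 0.0683), and it fell with the GC trend removed (log2 -0.95, edgeR adjusted p = 0.00238). CD44, the hyaluronan receptor whose variant forms can carry heparan sulfate, had 153 ± 10.9 and 131 ± 8.64 FPKM (edgeR adjusted p = 0.339).

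None of 11 genes for cytoplasmic partners of syndecans passed (median -0.03). EZR, ezrin, which ties membrane proteins to actin, had 254.5 ± 9.69 and 210.5 ± 21.5 FPKM (edgeR adjusted p = 0.292), and ACTN4, an actinin that binds the SDC4 tail, 244 ± 16.3 and 215 ± 24.6 FPKM (edgeR adjusted p = 0.501). Of 11 tested basement membrane and agrin partners, 1 rose and 1 fell (median 0.18). COL4A1 rose 1.83-fold from 18.4 ± 1.41 to 34.2 ± 5.23 FPKM (edgeR adjusted p = 0.0202), and its partner chain COL4A2 had 46.8 ± 7.27 and 73.9 ± 7.24 FPKM (edgeR adjusted p = 0.0933, and 0.00204 with the GC trend removed, where it rose). LAMA5, a laminin chain, was 1.64-fold lower at 67.8 ± 5.87 and 41.8 ± 2.98 FPKM (edgeR adjusted p = 0.0418). As counted, the LAMA5 call was lost without any 1 control replicate and without TGF-β1 replicate 2 (edgeR adjusted p = 0.122 to 0.349). The COL4A1 call was lost without control replicate 1 or 3 or TGF-β1 replicate 2 (edgeR adjusted p = 0.116 to 0.234). With the GC trend removed both passed (edgeR adjusted p = 0.00722 for LAMA5 and 0.000899 for COL4A1). With 1 library left out as well, LAMA5 did not pass without control replicate 1 (edgeR adjusted p = 0.053), and COL4A1 passed each time. LAMC1, the common laminin gamma chain, had 69.0 ± 6.41 and 79.8 ± 6.75 FPKM (edgeR adjusted p = 0.482). COL4A1 and LAMA5, the called genes of this list, moved in opposite directions.

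**Figure D5:**
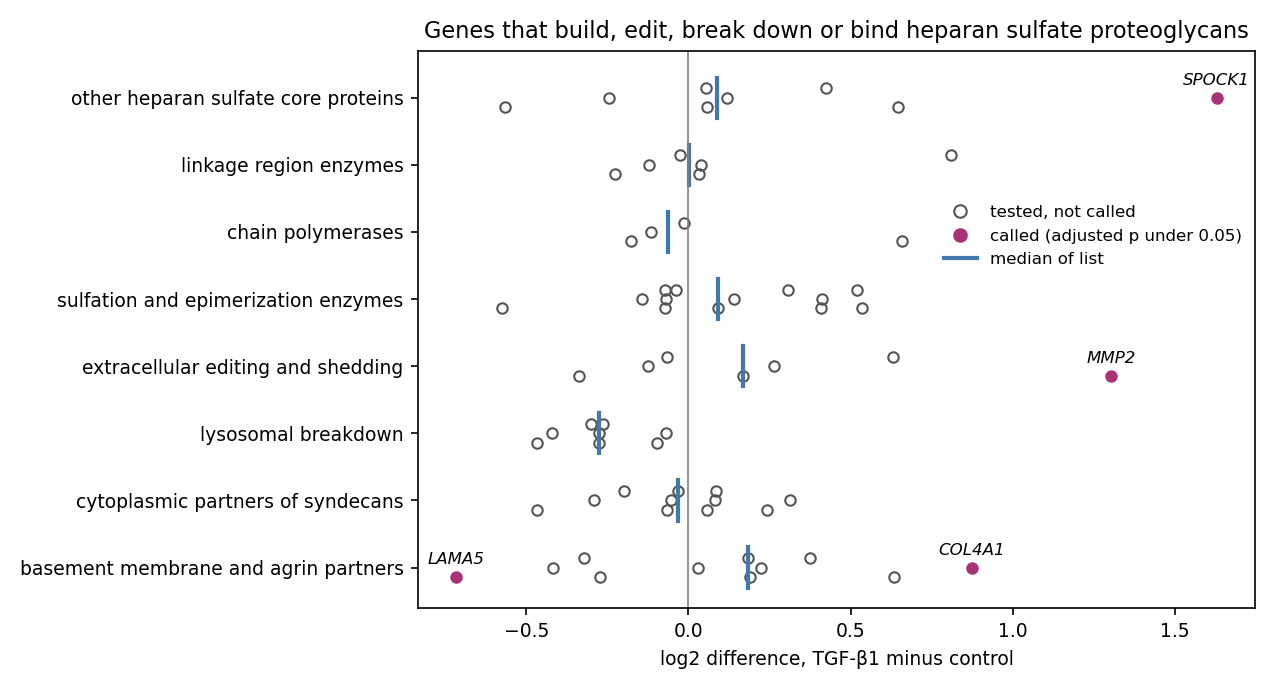
edgeR log2 differences (TGF-β1 minus control) of 68 tested genes in 8 lists; filled points passed at an adjusted p under 0.05 and blue bars are list medians. SPOCK1, MMP2 and COL4A1 lie to the right and LAMA5 to the left, and all 8 lysosomal genes lie below 0.

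HSPG2 had the smallest p of the members. Among 10642 tested genes with a symbol and a mean of at least 5 CPM, the 3 log2 profiles over the 6 libraries most like its own included those of NUP210 (235 and 152 CPM in controls and with TGF-β1; root mean square difference 0.077) and DCHS1 (34.2 and 20.6 CPM; 0.10).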

How the data were processed

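Counts and FPKM of 27830 genes in 6 libraries were analysed. Per the submitters' processing notes, HISAT2, HTSeq 0.13.5 and GRCh38 were used; their roles, annotation release and filters are not given in the sources used here. Read count columns were deposited without normalization, per the file headers. The FPKM columns were deposited by the authors, per the file headers. Libraries were made with a kit that does not mark strand, per the labels' protocols.

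The main test was the quasi-likelihood F test of edgeR 4.0.16 (R 4.3.3; robust, TMM, filterByExpr), with Benjamini-Hochberg adjustment over all 14463 tested genes and calls under 0.05, with no covariate. CPM are on TMM-scaled totals, and marker sums on total counts. Alternatives used limma 3.58.1, DESeq2 1.42.0 and removal of each library's loess trend (span 0.5) on the GC content of the longest GENCODE release 29 transcript (26968 genes matched, 862 not). The test was tested on simulated data. Libraries of a group differed by 5.21 to 45.7 in chi-square per degree of freedom, more than counting noise gives, so each was counted as 1 sample; libraries from the same RNA could differ in this way too. Same-numbered samples had deviations correlated at 0.176, 0.1 and -0.355, so the numbers were not taken as pairs.

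Named genes were all members, every called gene of the lists, the 2 tested genes per list with the highest FPKM, and the 3 genes nearest in profile to the member with the smallest p; some genes under this rule are not reported here. XYLT1, HS3ST3A1, ADAM17, SRGN and COL4A2 are also named because they passed with the GC trend removed. Members and lists were chosen with earlier results of these data known. Promoters come from RefSeq (GRCh38.p14). A count of 3, the floor of detection, equals 0.17 to 0.216 CPM, for counting error only.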

Additional observations from a re-analysis of the deposited data

How the results depend on the processing

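The directions of SDC3, SDC4, GPC1, GPC6, HSPG2 and AGRN were the same in all 24 alternatives. The number of all genes called, 53, became 111 with upper quartile factors, 1240 without a filter, 590 with DESeq2, 501 with the GC trend removed, 4 to 1671 without 1 library (4 without TGF-β1 replicate 2, 13 without control replicate 1, 15 without control replicate 3, 324 without TGF-β1 replicate 1 and 1671 without TGF-β1 replicate 3), and with both the GC trend and 1 library removed 108, 198 and 401 (control replicates 1 to 3) and 357, 108 and 1480 (TGF-β1 replicates 1 to 3). The number of members called, 0, became 2 without a filter (GPC1 and HSPG2), 1 with DESeq2 (HSPG2), 1 with the GC trend removed (GPC1) and 0 to 4 without 1 library (4 without TGF-β1 replicate 3, 1 without TGF-β1 replicate 1). List genes called, 4, became 10 without a filter, 7 with DESeq2, 9 with the GC trend removed and 0 to 14 without 1 library. The log2 differences that passed were -0.45 (no filter), -0.34 (GC trend removed) and -0.56 and -0.41 (without TGF-β1 replicate 3, as counted and with GC removed) for GPC1. For HSPG2 they were -0.59 (no filter), -0.59 (DESeq2), -0.73 and -0.62 (without TGF-β1 replicates 3 and 1) and -0.59 (GC removed, without TGF-β1 replicate 1). For GPC6 it was 1.28 and for AGRN -0.43, both without TGF-β1 replicate 3. Without 1 library the range was 0.51 to 1.28 for GPC6, -0.45 to -0.32 for AGRN, -0.56 to -0.34 for GPC1 and -0.73 to -0.41 for HSPG2. Over the alternatives, adjusted p ran from 0.0124 to 0.540 for GPC1, 0.00493 to 0.415 for HSPG2, 0.0208 to 0.752 for GPC6 and 0.0471 to 0.554 for AGRN. SDC1 and SDC2 turned sign without passing. SDC1 was at 0.0024 (total counts), 0.0025 (log2(FPKM + 1)), 0.0025 (log2(FPKM + 0.1)), 0.10 (GC removed), -0.096 to 0.074 without 1 library and, with GC removed as well, 0.063, 0.13 and 0.0996 (without control replicates 1 to 3) and 0.13, 0.081 and 0.089 (without TGF-β1 replicates 1 to 3). SDC2 was at -0.025 (upper quartile), -0.0037 (no filter), -0.0089 (DESeq2), -0.14 (GC removed), -0.096 to 0.043 without 1 library and, with GC removed as well, -0.26, 0.0060 and -0.16 (without control replicates 1 to 3) and -0.057, -0.18 and -0.18 (without TGF-β1 replicates 1 to 3). Among all these, the causes were not tested.

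With the replicate number as a block, 527 genes, 1 member (HSPG2, log2 -0.60) and 7 list genes were called, and the block with the GC trend removed gave 440 genes, 0 members and 8 list genes, with SDC1 at 0.10 and SDC2 at -0.12. The numbers share no stated batch, and same-numbered samples deviated together at 0.176, 0.1 and -0.355, or -0.0085, 0.086 and -0.18 with the GC trend removed. GPC6 had the fewest counts of the members, 15 to 67 per library.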

Other observations

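The 8 members together took 0.277%, 0.313% and 0.272% of all counts in controls and 0.218%, 0.241% and 0.249% with TGF-β1. These sums are not scaled by gene length, and AGRN had the most counts of the members in every library. Control replicate 2 was the highest and TGF-β1 replicate 1 the lowest, as for the genes of at least 60% GC. In CPM the groups overlapped for SDC1, SDC2, SDC3 and GPC6.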
